A study of Mus musculus with 43 samples.

Results

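Ly6a, Ly6c1, Ly6d and Ly6e are 4 mouse genes of the Ly6 surface antigen family, chosen here by symbol. All 4 were found among the 23951 genes of each bulk expression table and among the 54307 gene rows of each single-cell library. They encode small proteins held on the outer face of the plasma membrane by a glycosylphosphatidylinositol (GPI) anchor and folded into a compact, disulphide-bonded LU domain, a fold shared with the urokinase receptor Plaur. Ly6a, also called Sca-1, marks mouse haematopoietic stem cells and is known in the intestine as a marker of the fetal-like epithelium that appears after injury. Ly6c1 is best known from monocytes and endothelium, Ly6d (ThB) from lymphocyte progenitors and squamous keratinocytes, and Ly6e (Sca-2 or TSA-1) as a widely expressed, interferon-inducible member. Several members are induced by interferons, and TGFB1, the cytokine used in the study, signals through receptor kinases to SMAD transcription factors.

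Primary intestinal organoids from wild-type C57BL/6 mice were profiled by bulk RNA-seq in 6 groups of 3 libraries. Organoids without irradiation were collected on day 7 (D7 non-IR), and organoids given 4 Gy on day 4 were collected on day 7 (D7 IR) or day 11 (D11 IR). Each condition received vehicle or 2 ng/mL TGFB1 for 24 h from day 6, so the D11 organoids were collected days after that exposure had ended. Single-cell RNA-seq covered D8 organoids irradiated with 4 Gy on day 4, with 1 library for each length of exposure to 1 ng/mL TGFB1: 6, 15 and 24 h, plus a 24 h vehicle library called 0 h. It also covered DAPI-negative, Ki67-RFP-positive crypt cells of the proximal small intestine of Mki67tm1.1Cle/J mice, in 1 library from non-irradiated littermates and 2 libraries taken 56 h after 12 Gy to the whole body. The sort selects cells by the Ki67-RFP reporter and may not keep cycling cells only. Of the kept non-irradiated cells, 25.6% fell in the larger enterocyte-like cluster described below, 3.74% in a goblet-like and 3.36% in a Paneth-like one. Crypts of the irradiated mice were passed through a wider strainer than those of the controls. The labels do not say whether replicates are separate cultures or mice, so p-values measure the spread between these libraries, which may be technical.

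The 18 bulk libraries each had 11040 to 11361 genes above 1 FPKM (length- and depth-scaled fragment counts), and their read depth is unknown. All 11 epithelial marker genes were above 1 FPKM in every group, and 0 of 10 fibroblast markers were. Of 14 immune and 10 endothelial markers, 1 to 3 and 2 per group reached 1 FPKM, while Ptprc, Cd3e, Cdh5 and Kdr stayed at or near 0. The summed immune markers, led by Cd68 and Lyz2, were higher with TGFB1 than with vehicle in each condition (22.5 to 24.5 against 9.88 to 12.0 FPKM at D7 non-IR, 13.7 to 15.1 against 6.15 to 7.92 at D7 IR, 12.9 to 15.4 against 7.21 to 11.0 at D11), and the endothelial ones, led by Egfl7 and Esam, were lower with TGFB1 at D11 (6.62 to 7.88 against 15.5 to 17.7 FPKM). The epithelial markers themselves summed higher with TGFB1 at D7 (15482 to 16116 against 6998 to 7136 FPKM at non-IR, 16018 to 17328 against 6901 to 7081 at IR). Of all genes, 33.3%, 35.8% and 32.3% were called higher with TGFB1 at D7 non-IR, D7 IR and D11, and 34.9%, 39.7% and 31.6% lower. Of 12 proliferation genes, 10 fell at D7 non-IR and 12 at D7 IR, while 4 rose, near the share of all genes, and 0 fell at D11. At D7 IR all 8 Paneth and all 10 enteroendocrine genes tested rose, and at D11 6 of the Paneth genes rose and 6 of the enteroendocrine ones fell. Of 12 enterocyte genes, 2, 5 and 1 rose and 10, 5 and 7 fell at D7 non-IR, D7 IR and D11. In the same order, 0, 0 and 2 of 9 goblet genes rose and 8, 8 and 4 fell. Of 8 stem cell genes 2, 0 and 2 rose and 4, 6 and 4 fell. Of 7 tuft genes 6, 6 and 2 rose and 0, 1 and 3 fell. The part of these lists in the Ly6 changes was not tested. The single-cell libraries kept 2218 to 4283 organoid cells and 1846, 719 and 699 crypt cells (non-IR, IR replicates 1 and 2), at medians of 6709 to 10441 and 11969 to 14399 UMIs (unique molecules) per cell. Of all library pairs, 2 shared 1 cell barcode each and the others none.

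The 4 genes lie in 1 stretch of chromosome 15 that RefSeq (GRCm38.p6) orders from Psca to Gpihbp1, with 29 protein-coding genes. Ly6a and Ly6c1 are direct neighbours there, Ly6e is separated from Ly6a by Ly6i, and Ly6d lies nearer to Psca beside Lynx1. RefSeq's promoter table held an entry for 1 of the 4, Ly6c1, and it is shown because this gene had the largest TGFB1 rise of the 4 at D11. The 250 bases before the start (GRCm38.p6, chr15:75048838-75049087, minus strand) read as follows, 5′ to 3′, with the match to TATAAA in capitals.
Ly6c1: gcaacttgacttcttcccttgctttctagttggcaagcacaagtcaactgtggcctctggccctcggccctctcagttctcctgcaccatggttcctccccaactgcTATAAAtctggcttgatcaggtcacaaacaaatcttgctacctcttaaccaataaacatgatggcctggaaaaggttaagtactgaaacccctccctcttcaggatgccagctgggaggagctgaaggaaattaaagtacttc
The 5 motifs searched on both strands were TATAAA, the gamma-interferon activated site TTCNNNGAA, the SMAD site CAGACA, the AP-1 site TGANTCA and the TEAD site GGAATG. The window held 1 match, TATAAA at 143 bases before the start, so no matches overlapped, and the letters of the other 4 are not in this window. A second start of Ly6c1 in the same table, not printed here, has a window that holds CAGACA and not the others. Of 32851 windows of the same length, 12.4% hold TATAAA, 7.02% TTCNNNGAA, 17.1% CAGACA, 6.75% TGANTCA and 12.6% GGAATG.

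In vehicle-treated organoids, Ly6e was the highest of the 4 genes per length in each condition, followed by Ly6a, then Ly6d, with Ly6c1 lowest. All 4 were lower in irradiated than in non-irradiated organoids at D7. Ly6a stood at 120, 130 and 142 FPKM without irradiation and at 30.1, 28.8 and 28.3 FPKM after it, a 4.51-fold lower mean. Ly6d stood at 25.4, 31.6 and 37.8 against 8.50, 7.76 and 8.23 FPKM, a 3.87-fold lower mean. Ly6e went from 316, 313 and 315 to 148, 143 and 153 FPKM and Ly6c1 from 5.61, 5.89 and 6.50 to 2.91, 2.36 and 2.61 FPKM, 2.13-fold and 2.28-fold lower. The irradiated libraries lay below the non-irradiated ones without overlap for every one of the 4 genes, as they did for 44.3% of all genes compared. These levels come from separately deposited tables, so they carry no test, and the irradiation and the table cannot be told apart. In bulk organoids, fewer cells of a type and less RNA per cell cannot be told apart either.

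By D11 the vehicle organoids had partly different levels. Ly6e was at 380, 433 and 416 FPKM, 2.77-fold above its D7 IR level, and Ly6a at 38.3, 50.5 and 52.7 FPKM, 1.63-fold above it. Neither gene overlapped between the days, a pattern that 33.7% of genes had in the same direction. Ly6c1 (3.57, 2.72 and 4.02 FPKM) and Ly6d (8.15, 12.2 and 14.9 FPKM) overlapped their D7 IR range. Ly6e at D11 was thus above its D7 non-IR libraries, while Ly6a at D11 was below every D7 non-IR library.

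**Figure D1:**
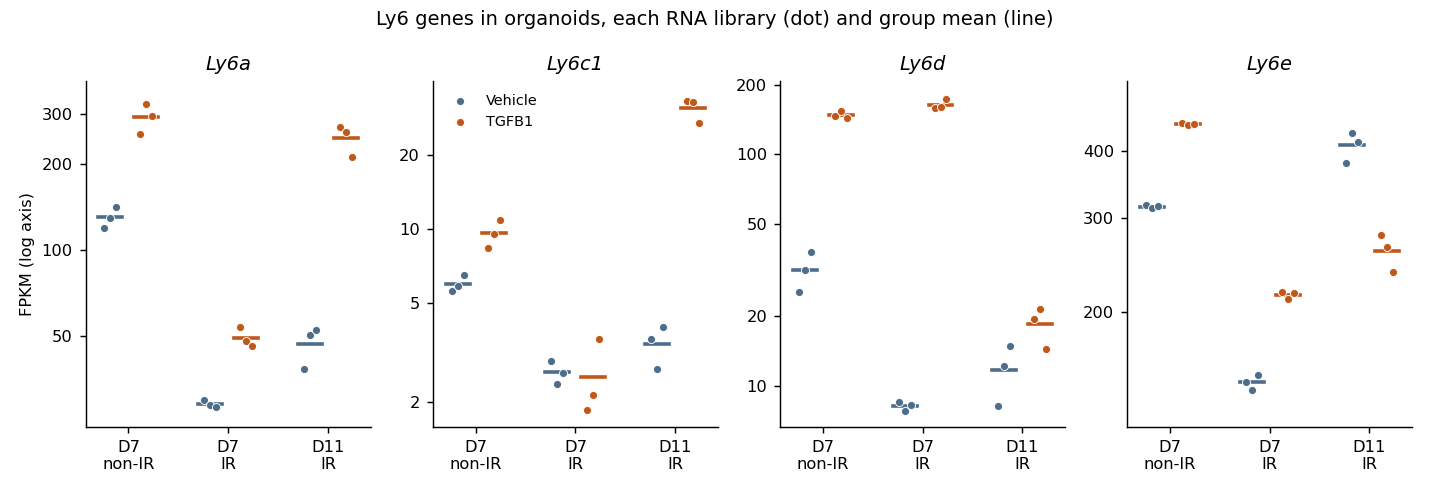
FPKM (log axis) of the 4 Ly6 genes in each of the 18 bulk RNA libraries; blue dots are vehicle, orange dots TGFB1, and lines are group means of 3 libraries. Ly6d reaches similar levels with TGFB1 in both D7 conditions, Ly6a and Ly6c1 are high with TGFB1 at D11, and Ly6e is the gene whose TGFB1 libraries lie below vehicle at D11.

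The first question was how TGFB1 changed these genes in non-irradiated organoids. All 4 rose, in a comparison in which limma called 68.2% of 11330 genes 33.3% as higher and 34.9% as lower, so a rise by itself is common. Ly6d, the keratinocyte antigen, rose most, from 25.4, 31.6 and 37.8 FPKM with vehicle to 146, 154 and 144 FPKM with TGFB1 (log2 change 2.21 ± 0.143 SE, limma adjusted p 4.40e-05). Ly6a went to 255, 327 and 295 FPKM (log2 change 1.15 ± 0.100 SE, adjusted p 5.43e-05), 2.23 times its vehicle mean. Every TGFB1 library of both genes lay above every vehicle library, as for 35.3% of all genes, and 0.997% of genes tested had a larger rise than Ly6d.

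Ly6e rose to 450, 446 and 449 FPKM from 316, 313 and 315 FPKM (log2 change 0.51 ± 0.0262 SE, limma adjusted p 2.62e-08). Its replicates were within 0.486% (coefficient of variation), which makes this 1.42-fold rise the most precisely measured of the 4. Ly6c1 rose to 8.39, 9.56 and 10.9 FPKM (log2 change 0.60 ± 0.0843 SE, adjusted p 9.96e-05), again without overlap. The rises of Ly6c1 and Ly6e were under 2-fold, a size that 8.44% of genes reached among the calls.

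In irradiated organoids at D7 the 4 genes parted. Ly6d went from 8.50, 7.76 and 8.23 FPKM to 159, 160 and 173 FPKM, a 20.1-fold higher mean (log2 change 4.17 ± 0.0483 SE, limma adjusted p 5.19e-12), and 0.133% of genes tested had a larger rise. Ly6a rose from 30.1, 28.8 and 28.3 to 53.8, 48.3 and 46.4 FPKM (0.75 ± 0.0555 SE, adjusted p 4.95e-07), and its TGFB1 libraries remained below each vehicle library of the non-irradiated table. Ly6e rose from 148, 143 and 153 to 218, 211 and 217 FPKM (0.54 ± 0.0366 SE, adjusted p 2.43e-07). Groups of these 3 genes did not overlap, and 37.1% of all genes were higher without overlap. In this comparison 75.5% of genes were called, 35.8% as higher and 39.7% as lower, and 13.2% were called with at least a 2-fold change, the size that Ly6d passed.

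Ly6c1 was not called at D7 IR. Its libraries stood at 2.91, 2.36 and 2.61 FPKM with vehicle and 1.85, 2.12 and 3.60 FPKM with TGFB1, so that TGFB1 libraries lay on both sides of the vehicle range (log2 change −0.07 ± 0.162 SE, limma adjusted p 0.699). Leaving out TGFB1 replicate 1 gave 0.065 (adjusted p 0.724), and leaving out TGFB1 replicate 3 gave −0.28 (adjusted p 0.0245).

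The D11 comparison asked what remained days after the TGFB1 exposure. Here Ly6c1 and Ly6a were the genes with the large rises. Ly6c1 went from 3.57, 2.72 and 4.02 FPKM to 33.1, 32.6 and 26.8 FPKM, an 8.98-fold higher mean (log2 change 2.85 ± 0.125 SE, limma adjusted p 1.23e-07). Ly6a went from 38.3, 50.5 and 52.7 to 271, 261 and 213 FPKM, 5.26-fold higher (2.37 ± 0.135 SE, adjusted p 5.38e-07). Neither gene overlapped between groups, as for 35.8% of genes higher with TGFB1, and 0.619% and 1.03% of genes tested had a larger rise. Of all genes, 63.9% were called, 32.3% as higher and 31.6% as lower, and 13.7% with at least a 2-fold change.

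Ly6e and Ly6d behaved otherwise at D11. Ly6e fell from 380, 433 and 416 FPKM to 279, 264 and 238 FPKM, with all TGFB1 libraries below all vehicle libraries, as for 34.3% of genes (log2 change −0.65 ± 0.104 SE, limma adjusted p 0.000398). Ly6d was at 8.15, 12.2 and 14.9 FPKM with vehicle and 19.4, 21.6 and 14.4 FPKM with TGFB1, and the groups overlapped (0.63 ± 0.225 SE, adjusted p 0.0425). This Ly6d call was lost without TGFB1 replicate 1 (adjusted p 0.122), TGFB1 replicate 2 (0.107), vehicle replicate 1 (0.0692) or vehicle replicate 2 (0.0881), with no filter on low values (0.0527) and with the replicate number as a block (0.0996).

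**Figure D2:**
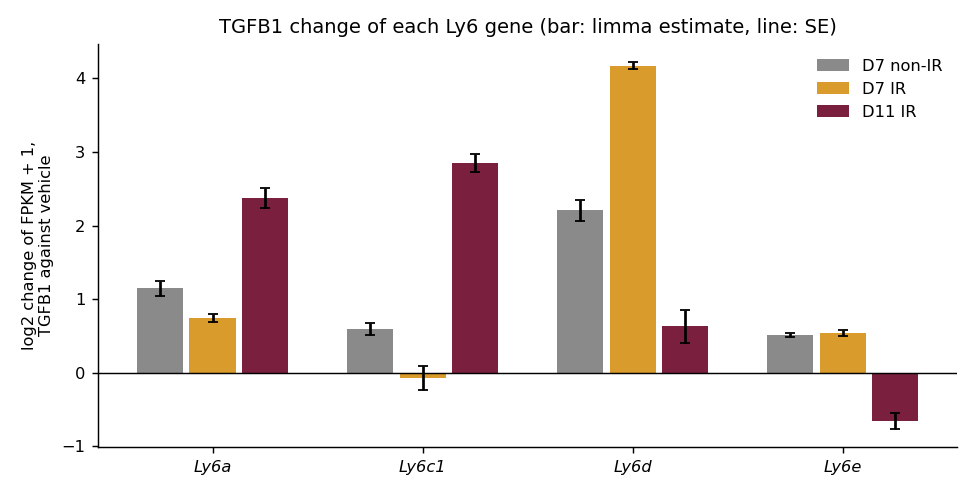
Log2 change of FPKM + 1 with TGFB1 against vehicle for the 4 Ly6 genes in each condition; bars are limma estimates from 3 against 3 libraries and lines are 1 SE. The largest bar of Ly6d is at D7 IR (4.17), those of Ly6a and Ly6c1 are at D11 (2.37 and 2.85), and Ly6e is below 0 at D11 (−0.65).

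The differences between conditions were tested as interaction terms, from which a scaling shared by all libraries of a table nearly drops out for genes well above 1 FPKM. For low genes such as Ly6c1 it drops out less fully, because 1 was added to each FPKM before the log. Between irradiated and non-irradiated D7 organoids, the TGFB1 change of Ly6d was larger after irradiation by 1.96 ± 0.147 (log2, SE, limma adjusted p 4.90e-07), and 0.368% of genes had a larger positive term. The changes of Ly6a (−0.40 ± 0.119, adjusted p 0.0122) and Ly6c1 (−0.67 ± 0.206, adjusted p 0.0152) were smaller after irradiation. That of Ly6e differed by 0.03 ± 0.0417 (adjusted p 0.550), which was not called. Of all genes, 53.1% were called in this term, 25.3% as higher, 27.8% as lower and 4.38% with at least a 2-fold difference, which Ly6d passed. With all 18 libraries in 1 fit, the term of Ly6a had an adjusted p of 0.0578.

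Between D11 and D7 in irradiated organoids, the TGFB1 change differed for all 4 genes, where 64.5% of genes were called (31.5% higher, 33.0% lower, 16.4% by at least 2-fold). It was larger at D11 for Ly6c1 (2.92 ± 0.229 SE, limma adjusted p 1.70e-07) and Ly6a (1.63 ± 0.159 SE, adjusted p 1.13e-06). It was smaller at D11 for Ly6d (−3.54 ± 0.255 SE, adjusted p 3.85e-07) and for Ly6e (−1.19 ± 0.102 SE, adjusted p 2.48e-07). Only 0.157% of genes had a larger positive term than Ly6c1, while 99.8% had a larger one than Ly6d. The TGFB1-treated levels themselves moved in the same directions for 3 of the genes: from D7 IR to D11 the mean of Ly6c1 was 12.2-fold higher, that of Ly6a 5.01-fold higher and that of Ly6d 8.89-fold lower, all without overlap (38.7% of genes were higher and 38.8% lower in this way). The mean of Ly6e with TGFB1 was 1.21-fold higher at D11, beside the 2.77-fold higher vehicle mean. Between the D7 tables, the TGFB1-treated means were lower with irradiation for Ly6a (5.90-fold), Ly6c1 (3.81-fold) and Ly6e (2.08-fold), and 1.11-fold higher for Ly6d, all without overlap (45.7% of genes were lower and 38.4% higher in this way).

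Across the 18 bulk libraries, Ly6a and Ly6c1 had the most similar patterns of the 6 pairs (Pearson r 0.84 of log2(FPKM + 1)), followed by Ly6a and Ly6e (0.58). For Ly6d the r to Ly6a was 0.39 and to Ly6c1 −0.00. Outside the family, the genes with the highest r were Socs5, Cbfb and Ninl for Ly6a (0.967, 0.966 and 0.958), and Ss18, Zfp185 and Mtap for Ly6c1 (0.955, 0.953 and 0.949). For Ly6d they were Clic1, Tapbp and Blcap (0.979, 0.978 and 0.978), and for Ly6e Sdc4, Gabbr1 and Tctn1 (0.986, 0.969 and 0.958). Sdc4, the gene of the cell surface proteoglycan syndecan-4, had D11 means of 136 FPKM with vehicle and 100.3 FPKM with TGFB1, against 120 and 150 FPKM at D7 non-IR. These r values are the highest of 11472 genes and describe libraries that share 6 groups and 3 tables, so they carry no p.

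Of the 46 genes on a list of the Ly6/uPAR family, 31 others were in the bulk tables and 8 to 10 passed the filter of a mean of 1 FPKM. At D7 non-IR, 8 of 10 rose and 0 fell, with a median log2 change of 0.88 against −0.02 over all genes, of which 33.3% rose. At D7 IR, 8 of 9 rose and 0 fell (median 1.06 against −0.03), and at D11, 4 of 8 rose and 2 fell (median 0.33 against 0.01). The filter takes in the TGFB1 libraries, so a low gene can pass through them, which favours rises in these counts. Without TGFB1 replicate 1 or 2 at D7 non-IR, 7 of 9 rose. With no filter on low values, 9 of 23 rose at D7 non-IR, 10 of 24 rose and 1 fell at D7 IR, and 5 of 23 rose and 4 fell at D11. In the day term 0 of 8 were higher and 7 were lower at D11. Lypd8, a highly glycosylated protein of colonic epithelium that keeps flagellated bacteria from the mucosa, was the most abundant, going from 417 to 996 FPKM at D7 non-IR (mean, log2 change 1.26) and from 486 to 1029.6 FPKM at D11 (1.09). Plaur, the urokinase receptor, rose in all 3 comparisons (2.04, 2.78 and 1.89, limma adjusted p at most 5.94e-07).

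The other named family genes were low. Psca (prostate stem cell antigen) rose by 0.79, 1.38 and 1.89 at D7 non-IR, D7 IR and D11 (adjusted p at most 0.00370), and Ly6g6c by 1.06, 2.08 and 0.64 (adjusted p at most 0.00144). Lynx1, a modulator of nicotinic receptors that lies beside Ly6d, rose by 0.96 and 1.03 at D7 non-IR and D7 IR, and had a change of 0.02 at D11 (adjusted p 0.860). Gml rose by 0.52 and 1.06 at D7 and was under the filter at D11. Ly6g6e rose by 0.63 and 0.98 at D7 (−0.34 at D11, adjusted p 0.0820), and Pinlyp by 1.11 at D7 non-IR, where alone it passed the filter. Ly6g6d rose by 0.44 at D7 IR and fell by 1.49 at D11 (adjusted p 0.00101), with 0.24 at D7 non-IR (adjusted p 0.0811). Spaca4 fell by 1.19 at D11 (adjusted p 7.26e-06) and was not called at D7 (−0.24 and −0.35, adjusted p at least 0.109).

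Few neighbours of the 4 genes could be tested. Of the other genes of the stretch, 4 were tested at D7 non-IR, where 3 rose, 4 at D7 IR, where 3 rose and 1 fell, and 3 at D11, where 2 rose. The gene that fell at D7 IR was Them6, a thioesterase-family gene next to Psca, with a log2 change of −0.85 (limma adjusted p 6.16e-07), and it rose at D11 (0.38, adjusted p 0.0196). These counts are too few to set against the shares over all genes. Ly6i, between Ly6e and Ly6a, had a mean of 0.0155 FPKM over the 18 libraries, and Ly6c2, the near copy of Ly6c1, one of 0.00782 FPKM. Reads shared between such copies could have been assigned to either, which makes the split between them uncertain.

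The interferon-stimulated genes were described beside the members because Ly6 genes are known interferon targets. At D7 non-IR, 18 of 24 tested rose and 2 fell (median log2 change 0.53), led by Rtp4 (1.73), a chaperone of G-protein-coupled receptors, and Ifi47 (1.29). Bst2 (−0.30) and Tap1 (−0.26) fell. At D7 IR, 15 of 19 rose and 1 fell (median 1.36), with Rtp4 (2.17) and the 2′-5′ oligoadenylate synthetase-like gene Oasl2 (2.12) in front and Ifitm3 (−0.91) lower. At D11, 3 of 17 rose and 8 fell (median −0.28). Irf1 (0.65) and Ifitm3 (0.45) rose, while the immunoproteasome gene Psmb9 (−2.46) and the peptide transporter gene Tap1 (−1.23) fell. In the day term 1 of 19 was higher at D11 and 17 were lower (median −1.58), beside the lower terms of Ly6e and Ly6d and the higher ones of Ly6a and Ly6c1. Whether interferon signalling has a part in the Ly6 changes was not tested.

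Genes of GPI anchor synthesis and attachment, on which the 4 proteins depend for reaching the surface, had medians below 0. Of all genes, 34.9%, 39.7% and 31.6% fell at D7 non-IR, D7 IR and D11. Of 27 tested, 2 rose and 11 fell at D7 non-IR (median −0.14), 4 rose and 18 fell at D7 IR (median −0.25), and 4 rose and 13 fell at D11 (median −0.24). The phosphodiesterase gene Mppe1 fell at D7 non-IR (−0.93) and D11 (−1.02), and Piga, which encodes a subunit of the first enzyme of the pathway, at D7 IR (−0.82). Pgap3 fell at D7 non-IR (−0.64), Pigf at D7 IR (−0.54) and Dpm3 at D11 (−0.76). Dpm2 (0.38, D7 non-IR), Pigc (0.23, D7 IR), Gpaa1 (0.32, D11) and Pigm (0.13, 0.21 and 0.35) rose.

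On the list of regenerative epithelium markers, 19 of 20 genes rose at D7 non-IR and 21 of 22 in each irradiated comparison, with medians of 2.09, 2.02 and 2.29. Clu, the gene of clusterin, rose by 5.19, 4.37 and 5.63 and Anxa8 by 4.64, 4.82 and 5.51, while Ereg fell at D7 non-IR (−0.96). Of all genes, 33.3%, 35.8% and 32.3% rose. On the squamous list of 22 genes, 5 of 5, 5 of 6 and 6 of 6 tested genes rose. Of the 22, 3, 5 and 3 had a mean of at least 1 FPKM with vehicle and 7, 9 and 6 with TGFB1. Some tested genes thus passed the filter only through the TGFB1 libraries, which favours rises in these counts. The largest rises on the squamous list were Serpinb5 (2.98) and Sfn (2.63) at D7 non-IR, Krt14 (3.51) and Serpinb5 (3.23) at D7 IR, and Krt4 (5.71) and Lor (2.97) at D11, where Ly6d itself was near its vehicle range. Krt15 fell at D7 IR (−0.89).

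In single cells of irradiated organoids, Ly6d had a higher level at each later time of TGFB1. Its summed level was 2.85 UMIs scaled to a common library total (CPM) at 0 h, 6.23 at 6 h, 14.1 at 15 h and 24.2 at 24 h, with exact Poisson 95% intervals of 2.25 to 3.56, 5.40 to 7.15, 12.7 to 15.6 and 22.5 to 26.0. These intervals cover counting error only, and with 1 library per time there is no test. The ratios to 0 h were 2.18, 4.93 and 8.49. Among genes with a mean of at least 1 CPM, 2.51%, 4.32% and 9.16% were at least 2-fold higher at 6, 15 and 24 h. The bulk D7 IR organoids (2 ng/mL, 24 h) had a 20.1-fold ratio, at another dose and day.

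Ly6a did not follow this course. It had 2.00 CPM at 0 h (54.7 UMIs), 0.483 at 6 h (15.7 UMIs, 4.14-fold lower, where 0.767% of genes were at least 2-fold lower), 2.62 at 15 h and 7.15 at 24 h, 3.58 times the level at 0 h. At 0 h, however, 10 cells held 80.5% of its UMIs and a single cell 34.8%. Without the 10 cells with most UMIs of the gene in each library, an alternative added after seeing the data, Ly6a was at 0.390, 0.144, 0.989 and 1.93 CPM. With every cell that had any UMI of the immune, endothelial or fibroblast lists left out, added in the same way, Ly6a was at 1.87, 0.518, 2.48 and 4.43 CPM. Ly6d without its 10 richest cells was at 2.04, 5.55 and 13.3 CPM at 6, 15 and 24 h, and at 0 h 96.2% of its UMIs were in the 10 cells left out.

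Ly6e was the most evenly spread of the 4 genes. It had 26.5, 27.5, 27.7 and 36.2 CPM at 0, 6, 15 and 24 h, and its 10 richest cells held 6.05 to 12.5% of its UMIs. The 24 h interval (34.1 to 38.4 CPM) lay above those of the earlier times. Ly6c1 was near the limit of detection with 2, 1.5, 1 and 5 UMIs in all cells of the 4 libraries, so no course can be read for it.

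After thinning each cell to 2000 UMIs, Ly6d was seen in 0.307, 0.655, 1.31 and 1.98% of cells at 0, 6, 15 and 24 h (unthinned 0.443, 1.21, 3.01 and 5.59%). Ly6a was seen in 0.136, 0.140, 0.208 and 0.631% (unthinned 0.682, 0.327, 1.18 and 2.61%), and the exact binomial 95% intervals of its first 3 times overlapped. Ly6e was seen in 4.40, 4.46, 4.71 and 6.00% of cells (unthinned 15.8, 14.9, 15.7 and 23.4%). Thinning left out 1 cell at 0 h and 5 at 6 h. Of 2218 thinned cells at 24 h, 11 had 2 of the 4 genes, and of 2931 at 0 h, 3 had 2 and 1 had 3.

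**Figure D3:**
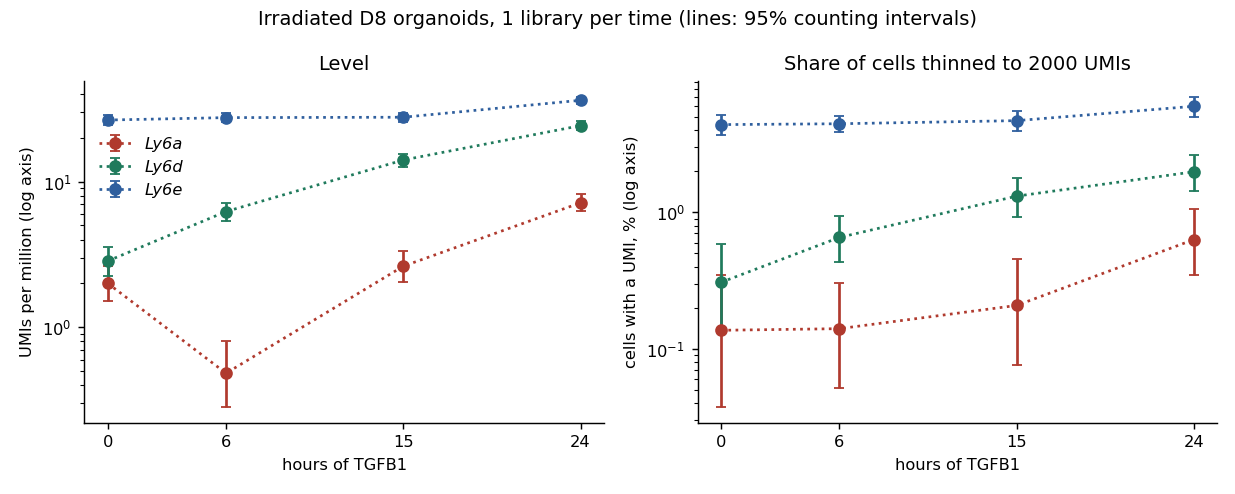
Left, level of Ly6a, Ly6d and Ly6e in CPM (log axis) against hours of TGFB1 in irradiated D8 organoids, 1 library per time; right, share of cells with a UMI after thinning to 2000 UMIs (log axis). Vertical lines are 95% counting intervals; Ly6d is higher at each later time, Ly6a is lowest at 6 h in the left panel, and Ly6e differs little before 24 h. Ly6c1, with at most 5 UMIs in a library, is not drawn.

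Cells were clustered with the genes of the family list left out of the variable genes, so these genes did not form the clusters. In organoids Ly6a and Ly6d were highest in 1 cluster of 201 cells, with Anxa8, Anxa1, Msln and Il1rn among its leading genes and called regenerative epithelium-like from markers. Over the 4 libraries together it held 74.9% of Ly6a UMIs (71.6 CPM), 73.8% of Ly6d UMIs (274 CPM) and 10.0% of Ly6e UMIs (92.3 CPM). Its share of Ly6d UMIs was 28.2, 49.0, 77.3 and 83.6% at 0, 6, 15 and 24 h, and that of Ly6a UMIs 53.0, 27.7, 65.2 and 86.8%, the first from 2 cells. By library it held 2, 13, 62 and 124 of the kept cells at 0, 6, 15 and 24 h. Within it Ly6d was at 524 CPM at 0 h (95% interval 329 to 794), 555 at 6 h (451 to 676), 332 at 15 h (295 to 373) and 233 at 24 h (215 to 252). Ly6a was at 691 CPM (463 to 993), 24.3 (6.12 to 57.5), 52.3 (38.1 to 69.9) and 71.3 (61.5 to 82.2). In these libraries the Ly6d level of this cluster was lower at 15 h than at 6 h and lower again at 24 h, while the libraries as a whole had more of it. The intervals cover counting error only and leave out the spread between cells and between libraries. At 6 and 15 h, 1 cell held 15.3 and 18.9% of the library's Ly6d UMIs. A fall with time within the cluster therefore cannot be read from these intervals. Pyy, the gene of an enteroendocrine hormone, and the gastric protease gene Ctse were also among this cluster's 10 leading genes.

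A cluster of 428 cells, unnamed and led by Ada, Clca4a, Pnliprp2 and Sprr1a, had the next highest Ly6d level (37.4 CPM, 11.4% of its UMIs) with little Ly6a (3.37 CPM). At 0 h it gave 57.7% of the library's Ly6d UMIs, and at 24 h 4.31%. Ly6e was distributed otherwise. It was at 51.3 and 43.3 CPM in both proliferation-like clusters and at 48.6 CPM in the larger stem-like cluster, but at 3.08 CPM in the largest enterocyte-like cluster, where Ly6a (0.0622 CPM) and Ly6d (0.560 CPM) were also low.

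**Figure D4:**
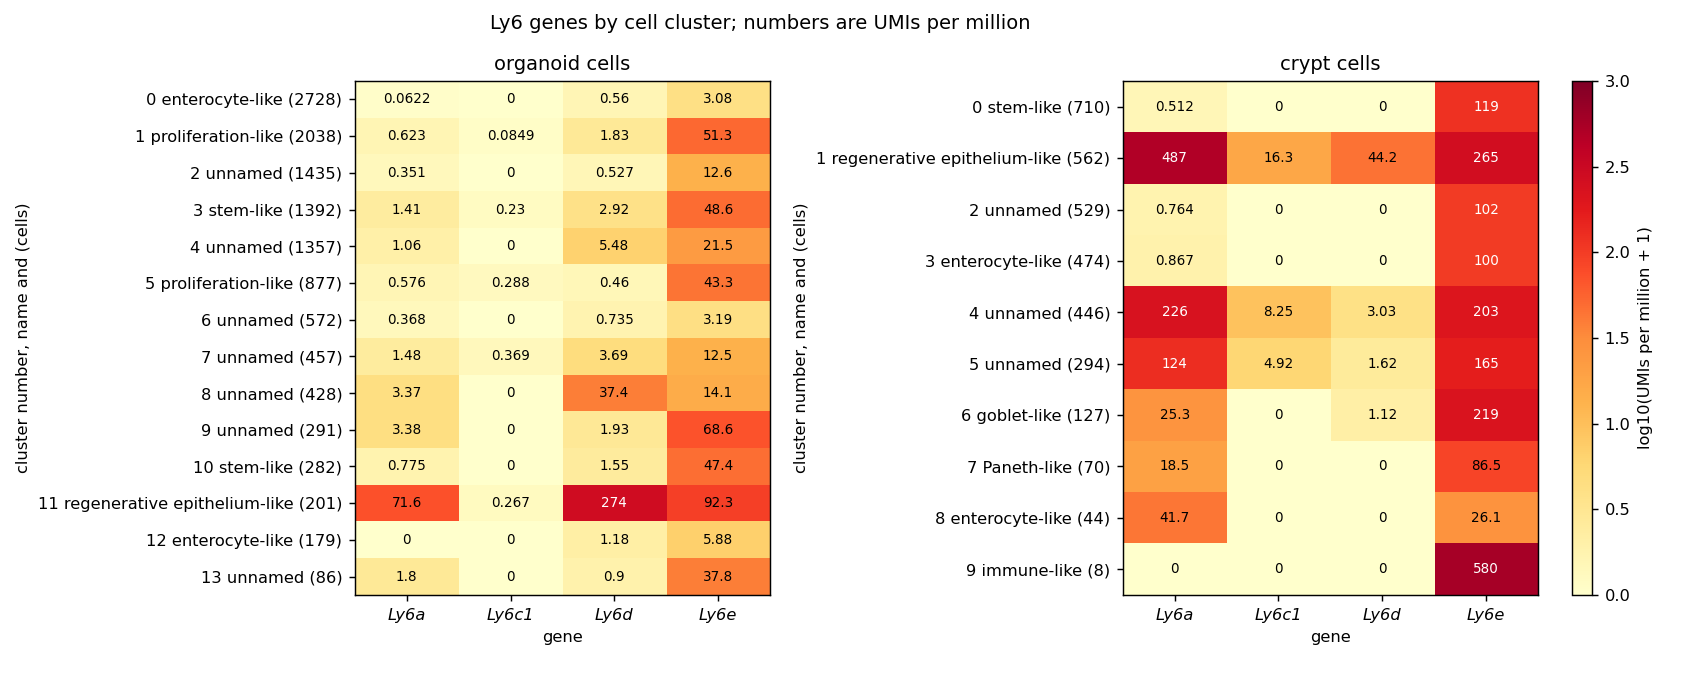
CPM of the 4 Ly6 genes (numbers, and colour on a log10 scale) in each cell cluster of the organoid (left) and crypt (right) single-cell libraries, with the number of cells in brackets. Ly6a and Ly6d are highest in the regenerative epithelium-like cluster of each experiment, while Ly6e is present in most clusters.

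In sorted crypt cells the question was what irradiation of the animal changed. All 4 genes were higher in both irradiated libraries than in the non-irradiated one, and edgeR called 33.9% of 16398 genes, 17.2% as higher and 16.7% as lower, while 14.0% were at least 2-fold higher in both irradiated libraries. Ly6a had 17 UMIs in 1846 non-irradiated cells, or 0.660 CPM (exact Poisson 95% interval 0.384 to 1.06), against 268 (260 to 277) and 313 (304 to 323) CPM at 56 h after 12 Gy. These are 407- and 475-fold ratios (edgeR quasi-likelihood, log2 change 8.59, adjusted p 1.45e-09). At 17 UMIs without irradiation, Ly6a passed the filter on low counts only through the irradiated libraries. Only a rise could therefore be called for Ly6a in this fit, and this p-value adds no support to the ratios. Ly6e was at 111, 211 and 219 CPM, ratios of 1.90 and 1.97 (0.77, adjusted p 0.00151). The spread in this test comes from the 2 irradiated libraries, and the lone non-irradiated library is assumed to vary like them.

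Ly6c1 and Ly6d had no UMI in the non-irradiated library, so their ratios are against a floor of 3 UMIs in that library (0.116 CPM). Ly6c1 was at 8.71 and 11.4 CPM after irradiation, at least 75.1- and 98.1-fold higher than this floor (edgeR adjusted p 4.93e-07). Ly6d was at 21.4 and 15.8 CPM, at least 184- and 136-fold higher than it (adjusted p 1.10e-07). Both genes passed the filter on low counts only through the irradiated libraries. Only a rise could therefore be called for them, and these p-values add no support to the ratios. In irradiated replicate 1, however, a single cell held 49.0% of the Ly6d UMIs, and in replicate 2 the richest cell held 21.5%. Without the 10 cells with most Ly6d UMIs in each library, an alternative added after seeing the data, Ly6d was at 4.08 and 5.51 CPM.

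**Figure D5:**
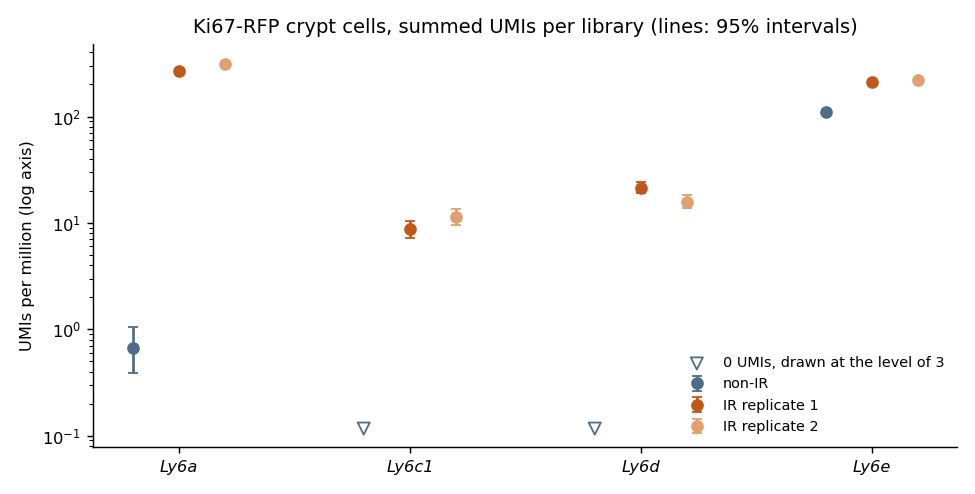
CPM (log axis) of the 4 Ly6 genes in the 3 libraries of Ki67-RFP-positive crypt cells; vertical lines are exact Poisson 95% intervals, and open triangles mark 0 UMIs, drawn at the level of 3. Ly6a is 407- and 475-fold higher in the irradiated libraries, and Ly6e 1.90- and 1.97-fold.

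After thinning to 2000 UMIs, Ly6a was seen in 0.0542% of non-irradiated cells (1 of 1846) and in 30.0 and 31.3% of irradiated cells (unthinned 0.867, 67.9 and 66.0%). Ly6e was seen in 20.6, 32.8 and 33.3% (unthinned 65.7, 87.6 and 79.4%). Ly6c1 was seen in 2.09 and 1.29% of irradiated cells and Ly6d in 1.81 and 2.15%, with 0 of 1846 non-irradiated cells for both. A count of 0 allows 3 cells, or 0.163%, which limits cells with a UMI at this depth and not cells that express the gene. Among thinned irradiated cells, 13.1 and 13.2% had 2 of the 4 genes and 1.67 and 0.715% had 3, while no thinned non-irradiated cell had more than 1. Of cells with Ly6a, 42.6 and 37.9% also had Ly6e, against 28.6 and 31.3% of cells without Ly6a, and 5.09 and 4.11% also had Ly6d, against 0.398 and 1.25%. Cells are not replicates, so these shares are a description.

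The irradiated crypt cells fell into clusters nearly apart from the non-irradiated ones, so a cluster here may be a library rather than a cell type. The regenerative epithelium-like cluster, with Anxa8, Il1rn, Clu and Anxa1 in front, held 239 and 323 cells of the irradiated libraries and none of the other. In it Ly6a was at 546 and 445 CPM, Ly6c1 at 15.1 and 17.0, Ly6d at 65.5 and 29.5 and Ly6e at 275 and 258 CPM. It gave 62.2 and 70.0% of the Ly6a UMIs of the irradiated libraries, 53.1 and 73.5% of those of Ly6c1 and 93.5 and 91.8% of those of Ly6d. Ly6a also stood high outside it, at 189 and 281 CPM in an unnamed cluster led by small nuclear RNA genes such as 7SK and at 124 and 126 CPM in another unnamed cluster.

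The goblet-like cluster was the named cluster with at least 20 cells from every crypt library. There Ly6a had 0 UMIs in 69 non-irradiated cells (3 UMIs would be 3.804 CPM) and was at 47.6 CPM (32.0 to 67.6) in 38 and 41.4 CPM (23.2 to 68.3) in 20 irradiated cells. Ly6e in these cells was at 210 CPM without irradiation and at 256 and 174 CPM after it. In the non-irradiated stem-like and enterocyte-like clusters Ly6a was at 0.512 and 0.873 CPM.

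Markers of other cell types and of epithelial lineages moved with the irradiated crypt libraries. Of 12 enterocyte genes 6 were lower and 0 higher (median log2 change −1.40), as with Fabp1, a fatty acid binding protein gene, at 1327, 75.9 and 363 CPM, of 9 Paneth genes 6 were lower and 2 higher (median −0.92), and of 8 stem cell genes 4 were lower and 0 higher. Their part in the Ly6 differences was not tested. The summed immune markers were at 35.9 CPM without and at 61.1 and 46.3 CPM with irradiation, and the endothelial ones at 11.3, 21.5 and 20.2 CPM, with 1 of 14 and 3 to 4 of 10 genes at 0. Gzma and Pecam1 were the most abundant. The fibroblast markers summed to 3.14, 1.93 and 2.60 CPM, with 4 of 10 at 0. Cells with at least 3 such UMIs from at least 2 genes numbered 4 to 8 per list and library for immune and endothelial markers and 0 for fibroblasts, and those of any one list held at most 5.88% of the UMIs of any of the 4 genes. The 8 cells of an immune-like cluster had 0 Ly6a, Ly6c1 and Ly6d UMIs and 580 CPM of Ly6e. With every cell that had any UMI of these lists left out, Ly6a was at 0.711, 263 and 299 CPM, Ly6c1 at 0, 8.43 and 11.7 CPM, Ly6d at 0, 5.31 and 13.9 CPM and Ly6e at 113, 217 and 209 CPM.

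The near copies Ly6a2 and Ly6c2 had at most 2.67 UMIs in a crypt library, and fractional entries, which come from UMIs shared between genes, made up at most 4.23% of the UMIs of any of the 4 genes there. Of 15 other family genes tested, 7 were higher and 2 lower after irradiation. Plaur was at 0.116, 21.7 and 34.8 CPM (edgeR adjusted p 1.53e-07). Of those 7, Plaur, Lynx1, Pinlyp and Ly6g passed the filter on low counts only through the irradiated libraries. Only a rise could therefore be called for them, which favours rises in this count, and the p-value of Plaur adds no support. Lypd8 was lower, at 1580, 543 and 608 CPM (log2 change −1.64, adjusted p 1.65e-06), in contrast to its rise with TGFB1 in organoids, and Cd59a was lower too (−2.06, adjusted p 0.00918). Ly6g, known from neutrophils and named here after its values were seen, had 0, 9 and 23.7 UMIs.

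Of the interferon-stimulated list 21 of 30 genes were higher and 2 lower in irradiated crypt cells (median log2 change 1.25 against 0.00 over all genes). Psmb9 (89.5, 24.4 and 18.1 CPM) and Psmb8 (68.9, 22.1 and 36.1 CPM) were the 2 that fell, and the largest fitted rises were those of the low genes Gbp3 (0, 1.17 and 2.43 CPM) and Ifit3 (0.0388, 1.02 and 2.92 CPM). Of the GPI anchor genes, 1 of 29 was higher (Pgap1, 19.1, 69.7 and 98.3 CPM) and 7 were lower, among them Pigp (61.8, 24.6 and 26.5 CPM) and Pgap3 (19.9, 9.61 and 9.88 CPM). All 20 tested genes of the regenerative list were higher, which holds Sprr1a (0, 12.5 and 17.0 CPM) and Anxa8 (0.0388, 22.6 and 34.4 CPM). Gbp3 and Sprr1a, with 0 UMIs without irradiation, and Ifit3 and Anxa8, at 0.0388 CPM, passed the filter on low counts only through the irradiated libraries. So did other low genes of the interferon-stimulated and regenerative lists, such as Rsad2 and Clu, which favours rises in these counts. The squamous list had 6 higher and 1 lower of 9, led by Sprr2a1 (5.01, 788 and 1133 CPM) and Serpinb5 (0.854, 26.7 and 38.9 CPM), the fall being that of Gsdmc2 (20.8, 0.0728 and 0.0810 CPM).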

How the data were processed

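The FPKM values deposited by the authors come in 1 table per condition; per the submitters' processing notes, TopHat2 2.1.0, Cuffnorm 2.2.1 and Cuffdiff 2.2.1 were used, and the builds named are mm9, GRCm39 and mm39, with no roles. As deposited, the PIPseq T2 matrices (STARsolo in the notes) give expected counts, with UMIs split between genes. No column was unmapped (0).

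FPKM were tested as log2(FPKM + 1) with limma 3.58.1 (trend, robust; R 4.3.3) over genes whose mean reached 1 FPKM, two-sided, Benjamini-Hochberg over all genes tested, threshold 0.05; log2 changes of low genes are understated by the added 1. Replicate numbers were not treated as pairs. Doublets were not removed, and cells under 500 UMIs or 250 genes or above 20% mitochondrial UMIs were dropped. Crypt UMIs were summed, rounded and tested with edgeR 4.0.16 (quasi-likelihood, TMM), DESeq2 1.42.0 being an alternative. Clusters came from scanpy 1.11.5 and leidenalg 0.10.2 (2000 variable genes, resolution 0.6), named where the median marker fold was at least 2. The scripts were tested on simulated data.

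The members, lists and tests were chosen with earlier results of these data known. Named genes were the 4 members, up to 10 other family genes of highest mean FPKM, the 2 called genes with the largest rise and fall per list and comparison, and the 3 of highest r. ATAC-seq peaks were planned but not analysed here, because their build could not be matched to the annotation used.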

Additional observations from a re-analysis of the deposited data

Results flagged for a closer look

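The TGFB1 change differed between irradiated and non-irradiated D7 organoids, by the interaction term, for Ly6a (log2 difference −0.40), Ly6c1 (−0.67) and Ly6d (1.96). Between D11 and D7 in irradiated organoids it differed for Ly6a (1.63), Ly6c1 (2.92), Ly6d (−3.54) and Ly6e (−1.19). The terms of Ly6a and Ly6c1 thus had the opposite sign to that of Ly6d in each of these tests. The vehicle levels, which enter each term, differed between the tables as well.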

How the results depend on the processing

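Each bulk result was refitted with a pseudocount of 0.1, no filter, median-ratio scaling, quantile normalization, all 18 libraries in 1 fit, the replicate number as a block, a 2-fold requirement, and without each replicate. No alternative reversed a called member. Ly6c1 at D7 IR, not called, ran from −0.28 to 0.065 when leaving out replicates, and turned positive, to 0.065, without TGFB1 replicate 1. Ly6d at D11 (0.63) lost its call with no filter, with the replicate block (adjusted p 0.0996), and in 4 of 6 fits without a replicate (0.41 to 0.81). The Ly6a term of irradiation (−0.40) lost its call with all 18 libraries. A 2-fold requirement ended the calls of Ly6c1 (0.60) and Ly6e (0.51) at D7 non-IR, Ly6a (0.75) and Ly6e (0.54) at D7 IR, Ly6d (0.63) and Ly6e (−0.65) at D11, and the irradiation terms of Ly6a (−0.40) and Ly6c1 (−0.67). It left 956, 1484, 1574, 500 and 1880 genes called in the D7 non-IR, D7 IR, D11, irradiation and day comparisons, against 7732, 8495, 7335, 6061 and 7387. The replicate numbers did not pair the libraries (correlations of same-numbered deviations −0.17 to 0.26), and the block ended no other call of a member; with it 9 of 10 other family genes rose and 1 fell at D7 non-IR. In crypt cells DESeq2 called 3028 genes against edgeR's 5558, with all 4 members called under all 6 alternatives. For Ly6c1 and Ly6d, with 0 UMIs in the non-irradiated library, only a rise could be called. For Ly6a, with 17 UMIs there, the same held in the edgeR fits with the filter on low counts. Leaving out an irradiated crypt library leaves no residual degrees of freedom, so no test was run, and each library's ratio is given instead. Depth limits Ly6c1 in organoid cells, at most 5 UMIs a library.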
